A study of Rattus norvegicus with 2 samples.

Results

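Of the 3457 cells sequenced from a culture of a rat intestinal epithelial line labelled as treated with TNF, 462 cells (13.4%, 95% interval 12.2 to 14.5%) carried much Top2a RNA and are described here as Top2a-high cells. The cells were chosen by their Top2a counts alone: a cell entered with at least 500 counts in all, a Top2a count of at least 3 and at least 5 Top2a counts per 10000 counts. They are 462 of the 9170 cells in the whole series. The line is IEC-6, an established epithelial line from rat small intestine. Each group is 1 library: the cells labelled TnFa received 100 ng/mL recombinant rat TNF, an inflammatory cytokine, for 72 hours in each of 10 cycles, and the cells labelled Ctrl received PBS according to the series' design text. Per the labels, both came from frozen vials that were thawed and washed before library preparation. The titles of the libraries carry different prefixes (HDH and YHK), so treatment, culture history and preparation cannot be told apart.

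Topoisomerase II alpha, the product of Top2a, passes DNA strands through each other so that copied chromosomes can be untangled, condensed and pulled apart. Its RNA is low in resting cells, appears during DNA replication and is highest in G2 and mitosis. Many genes of spindle, kinetochore and cytokinesis proteins follow the same course through the cell cycle, because the MuvB-containing complexes DREAM and B-Myb-MuvB-FOXM1 hold them down in resting cells and switch them on in G2. The genes of the replication machinery peak earlier, around the entry into S phase, under E2F factors.

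The comparison cells were the 1402 cells of the TNF library with 0 Top2a counts and at least 2000 counts, called Top2a-0 cells. The remaining cells of the library hold 655 cells with 0 Top2a counts but under 2000 counts, 888 cells with 1 or 2 Top2a counts, and 50 cells with at least 3 Top2a counts but under 5 per 10000. Top2a-high cells held 75.3% of the library's Top2a counts. Their Top2a count ran from 3 to 49 with a median of 7, and their Top2a level from 5.01 to 73.1 per 10000 counts with a median of 12.5. These values are what the rule used and are given only as a description. At the edge of the rule, the 70 cells inside it with exactly 3 Top2a counts had 7206 CPM of mitotic genes (CPM, counts per 1000000 counts of the group), and the 120 cells outside it with exactly 2 Top2a counts at 5 or more per 10000 had 6824 CPM. The 38 cells inside with 5 to under 6 Top2a counts per 10000 had 7440 CPM, and the 24 cells outside with 4 to under 5 had 6499 CPM. The cells on either side of both limits were close in mitotic RNA.

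The Top2a-high cells were deeper than the Top2a-0 cells, and the rule bears on this. A Top2a count of at least 3 is easier to reach in a deep cell, and a count of 0 in a shallow one. The 154 Top2a-high cells with the most Top2a per 10000 counts had a median of only 3595 counts. The median of all Top2a-high cells was 6228.5 counts (940 to 22570) and 2664 genes, against 4237.5 counts (2000 to 16314) and 2034 genes in Top2a-0 cells. Counts above 3 times the library's median were found in 52 Top2a-high cells (11.3%) and in 44 Top2a-0 cells (3.14%). How many of these are droplets with more than 1 cell was not tested, since the doublet caller marked 0 cells of this library and 1 of 5713 in the control library. The median share of mitochondrial transcripts was 3.03% in Top2a-high and 3.32% in Top2a-0 cells. The libraries share 24 cell barcodes, 5 of them of Top2a-high cells.

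Levels below are CPM of the counts summed over the cells of a group, and a ratio is the level in Top2a-high cells divided by that in Top2a-0 cells. With 1 library per group there is no replicate check and no test, and cells are not replicates. Brackets give 95% intervals from an exact binomial calculation, which cover counting error only. A gene was called higher or lower at a ratio of at least 2 in either direction with at least 10 CPM in the group where it was higher, and Top2a itself was left out. Of 8278 genes that reached 10 CPM, 340 were at least 2-fold higher in Top2a-high cells (4.11%) and 57 were at least 2-fold lower (0.689%). The other 7881 genes differed by less than 2-fold, and the median log2 ratio over all 8278 genes was -0.02. Among the higher genes 238 had their whole interval past 2-fold, and among the lower genes 5 did. With every cell thinned to 2000 counts, which left 425 Top2a-high cells and left out the 37 with fewer counts, 462 of 8394 genes were higher (5.50%) and 200 were lower (2.38%). The lists of genes for cell division hold 330 of the library's 16182 listed genes, with Top2a left out. Of the 340 higher genes 188 were on them (55.3%), and of the 57 lower genes 0 were. The lists are a small part of all genes and the lower genes are few, so this 0 is not read as a difference from all genes.

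Genes of cell division that the rule did not use were higher in the same cells. Of those given here, the markers Kif14, Prr11, Mxd3 and Nusap1 were chosen with earlier results of these data known. Their ratios are therefore a description and not an independent check. Mki67, the gene of the proliferation antigen Ki-67 that coats mitotic chromosomes, was at 848 CPM in Top2a-high and 154 CPM in Top2a-0 cells, a ratio of 5.52 (5.13 to 5.94). At 2000 counts a cell, 75.3% of Top2a-high and 24.1% of Top2a-0 cells had at least 1 Mki67 count. A cell type that should lack such RNA is not in this culture, so the share that free RNA gives was not tested. Kif14, a kinesin that places citron kinase at the midbody, was at 90.9 and 5.17 CPM, 17.6-fold higher (12.3 to 25.9). Prr11, a gene of late cell cycle phases, was at 30.5 and 1.98 CPM (15.4-fold, 8.60 to 30.1). Mxd3, a partner of MAX in the MYC network, was at 140 and 11.1 CPM (12.6-fold, 9.82 to 16.4). Nusap1, which bundles microtubules around chromosomes, was at 202 and 21.4 CPM (9.44-fold, 7.85 to 11.4).

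The epithelial markers that were expressed had similar levels in both groups of cells, and not all markers were expressed. Krt8, a keratin of simple epithelia, was at 1980 CPM in Top2a-high and 2260 CPM in Top2a-0 cells, and Cdh1, the gene of E-cadherin, at 281 and 328 CPM. Krt18 was low in both, at 20.9 and 27.4 CPM. The epithelial markers Epcam and Krt19 were at or near 0, with 1 Epcam count in each group and 9 and 12 Krt19 counts. Dclk1, the tuft cell kinase named in the study's title, was at 232 CPM in Top2a-high and 292 CPM in Top2a-0 cells, a ratio of 0.79 (0.73 to 0.86). At equal depth its ratio was 0.94, and 41.2% of Top2a-high and 42.3% of Top2a-0 cells had a Dclk1 count. Markers of other cell types did not mark the Top2a-high cells. Of the 5 white blood cell markers found, Ptprc, Cd3e and Csf1r had 0 counts in Top2a-high cells, Cd68 had 3, and Cd14 was at 25.2 against 41.2 CPM. Of the 3 endothelial markers, Kdr had 0 counts, Pecam1 had 1, and Tek was at 111 against 137 CPM. In the nerve and glia list 0 markers reached 10 CPM. Of the 4 fibroblast markers, Lum had 1 count, and Col1a1 (335 against 409 CPM), Dcn (76.6 against 111 CPM) and Col1a2 (18.2 against 19.2 CPM) were under 2-fold apart.

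Among the 15 genes with the largest ratios at 20 CPM or more, Depdc1b, a DEP-domain protein, led with 82.9 CPM in Top2a-high and 4.26 CPM in Top2a-0 cells, 19.5-fold higher (13.2 to 29.9), and at equal depth it was 12.8-fold higher. Kif14, Prr11 and Mxd3 followed. Sgol1 and Sgol2, the shugoshins that protect centromeric cohesin, were 12.5-fold (7.64 to 21.6) and 9.26-fold (7.49 to 11.5) higher. Gas2l3, which links actin and microtubules in the dividing cell, was 11.3-fold higher (8.18 to 15.9). Ccnf, the cyclin F subunit of a ubiquitin ligase, was at 34.2 and 3.19 CPM (10.7-fold). Esco2, the acetyltransferase that locks cohesin onto copied chromatids, was at 129 and 12.6 CPM (10.2-fold), and Cit, the citron kinase of the cleavage furrow, at 91.6 and 8.97 CPM (10.2-fold). Troap, Bub1b, which holds the spindle checkpoint, Depdc1 and Nusap1 were 10.0, 9.82, 9.55 and 9.44-fold higher. The plot of the leading genes sets these ratios beside those of the control library.

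**Figure D1:**
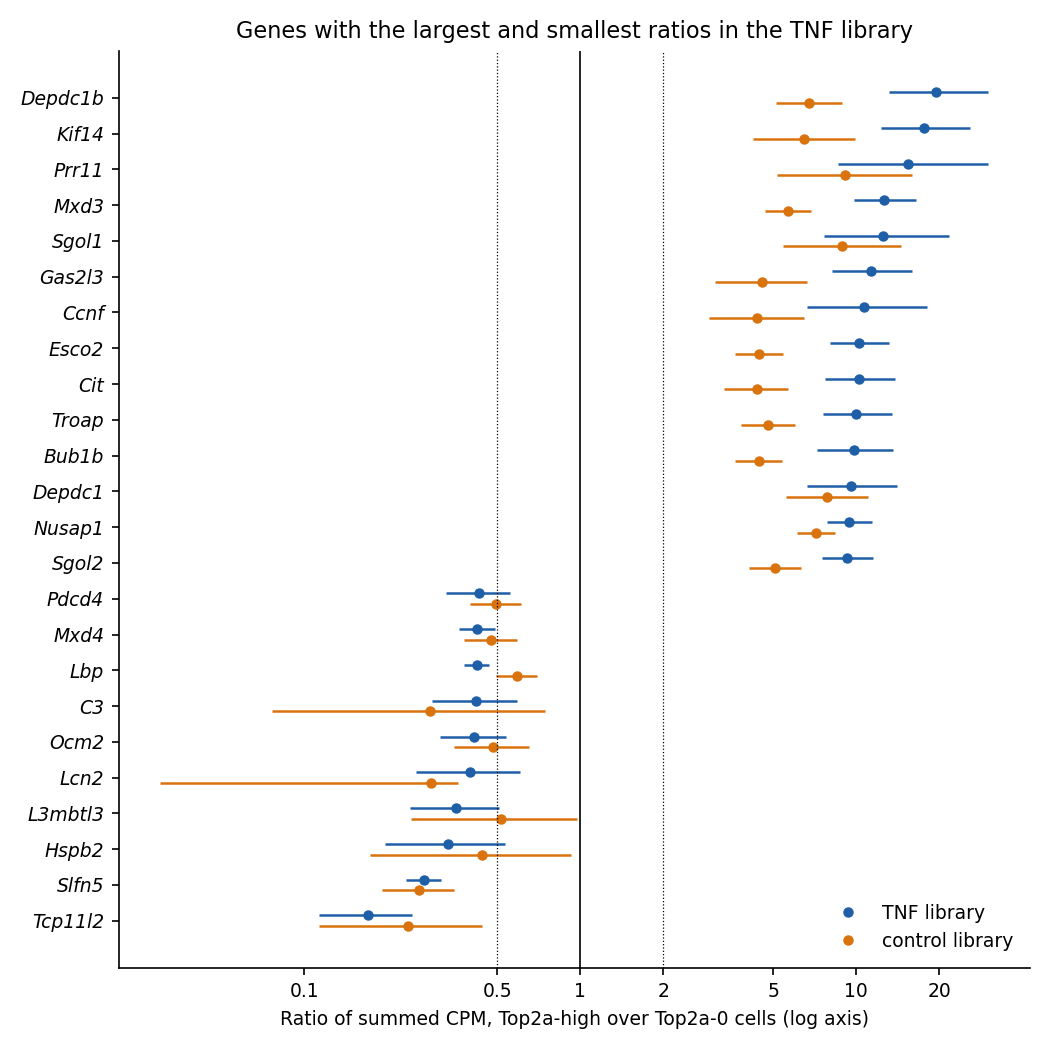
Ratio of summed CPM in Top2a-high over Top2a-0 cells (log axis) for 14 of the 15 genes with the largest and the 10 with the smallest ratio in the TNF library. Points are ratios and bars 95% intervals for counting error, blue for the TNF and orange for the control library, where the bar of Lcn2 reaches down to 0 and is drawn shortened. All 14 higher genes lie above 2 in both libraries. All 14 lie lower in the control library, a direction favoured by choosing them in the TNF library.

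The promoters of 4 leading genes are shown because MuvB complexes bind a short element, the cell cycle genes homology region (CHR), near the start sites of G2 and mitosis genes, often with CCAAT boxes for NF-Y. RefSeq windows from 250 bases before to 50 bases after the start, of build GRCr8, were matched to the files' genes by symbol (10786 of 16182 genes) or by an unambiguous synonym (827 genes). These are the 4 genes with the largest ratios whose windows hold a CHR. Some leading genes with larger ratios than Gas2l3 were passed over. Among them were Mxd3, whose window held 0 CHR matches, and Kif14, to which no window was matched. The 4 windows are written 5′ to 3′ along the gene's strand, the start site follows the first 250 bases, and capitals mark the CHR (TTTGAA or TTCGAA on either strand, where TTCAAA is TTTGAA on the opposite strand) and CCAAT on either strand (CCAAT or ATTGG).

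Depdc1b, chr2:41624672-41624971, plus strand: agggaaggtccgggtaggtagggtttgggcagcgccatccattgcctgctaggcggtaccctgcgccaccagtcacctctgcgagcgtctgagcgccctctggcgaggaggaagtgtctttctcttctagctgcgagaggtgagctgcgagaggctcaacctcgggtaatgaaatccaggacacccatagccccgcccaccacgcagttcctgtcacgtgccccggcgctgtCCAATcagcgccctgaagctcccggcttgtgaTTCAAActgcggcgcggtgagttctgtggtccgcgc
Prr11, chr10:72418226-72418525, minus strand: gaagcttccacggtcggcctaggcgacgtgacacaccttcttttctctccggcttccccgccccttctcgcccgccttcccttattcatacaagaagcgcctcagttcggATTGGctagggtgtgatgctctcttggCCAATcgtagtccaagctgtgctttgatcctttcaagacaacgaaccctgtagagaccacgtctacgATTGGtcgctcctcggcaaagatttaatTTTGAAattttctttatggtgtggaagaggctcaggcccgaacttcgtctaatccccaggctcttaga
Sgol1, chr9:6924366-6924665, minus strand: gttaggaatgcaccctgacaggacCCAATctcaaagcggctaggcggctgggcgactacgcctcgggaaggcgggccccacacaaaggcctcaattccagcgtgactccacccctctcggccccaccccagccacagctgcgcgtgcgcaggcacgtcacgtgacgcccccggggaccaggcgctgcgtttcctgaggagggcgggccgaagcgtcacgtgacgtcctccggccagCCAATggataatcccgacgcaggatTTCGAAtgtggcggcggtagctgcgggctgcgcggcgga
Gas2l3, chr7:25723659-25723958, minus strand: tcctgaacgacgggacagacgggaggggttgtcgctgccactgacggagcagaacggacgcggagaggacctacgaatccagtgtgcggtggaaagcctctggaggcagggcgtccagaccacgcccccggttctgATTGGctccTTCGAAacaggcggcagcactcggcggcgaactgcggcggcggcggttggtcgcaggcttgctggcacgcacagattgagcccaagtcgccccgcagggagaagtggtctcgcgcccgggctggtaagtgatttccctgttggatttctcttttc

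In Depdc1b the CHR begins 15 bases after the start site, and a CCAAT begins 18 bases before it. In Prr11 the CHR begins 18 bases before the start, with CCAAT boxes beginning 46, 113 and 140 bases before it. In Sgol1, listed in RefSeq as Sgo1, the CHR begins 12 bases after the start, with a CCAAT 14 bases and another 226 bases before it. In Gas2l3 both lie further upstream, with the CHR beginning 105 bases and the CCAAT 114 bases before the start. A match is a description of these letters and not a shown binding site.

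A CHR was found in 123 of the 271 higher genes with a window (45.4%, 39.4 to 51.5%), against 14.0% of the 6600 counted genes with a window and 19.5% of all 27457 windows in the table. Among the 57 lower genes, 2 of 44 windows held one (4.55%, 0.555 to 15.5%). A CCAAT box was in 59.0% of the windows of higher genes, 38.8% of those of counted genes and 37.7% of all windows. An E2F site (TTTGGCGC, TTTCCCGC, TTTCGCGC or TTTGCCGC on either strand) was in 13.7%, 4.82% and 2.25%. No motif contains the letters of another, and a window can hold several. Splitting the higher genes by role, which was added after the first shares were computed, separated the motifs. Of 76 mitotic genes with a window, 52 (68.4%, 56.7 to 78.6%) held a CHR and 3 (3.95%, 0.822 to 11.1%) an E2F site. Of 31 replication genes, 5 (16.1%, 5.45 to 33.7%) held a CHR and 16 (51.6%, 33.1 to 69.8%) an E2F site. CCAAT boxes did not separate them, at 60.5% and 67.7%.

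**Figure D2:**
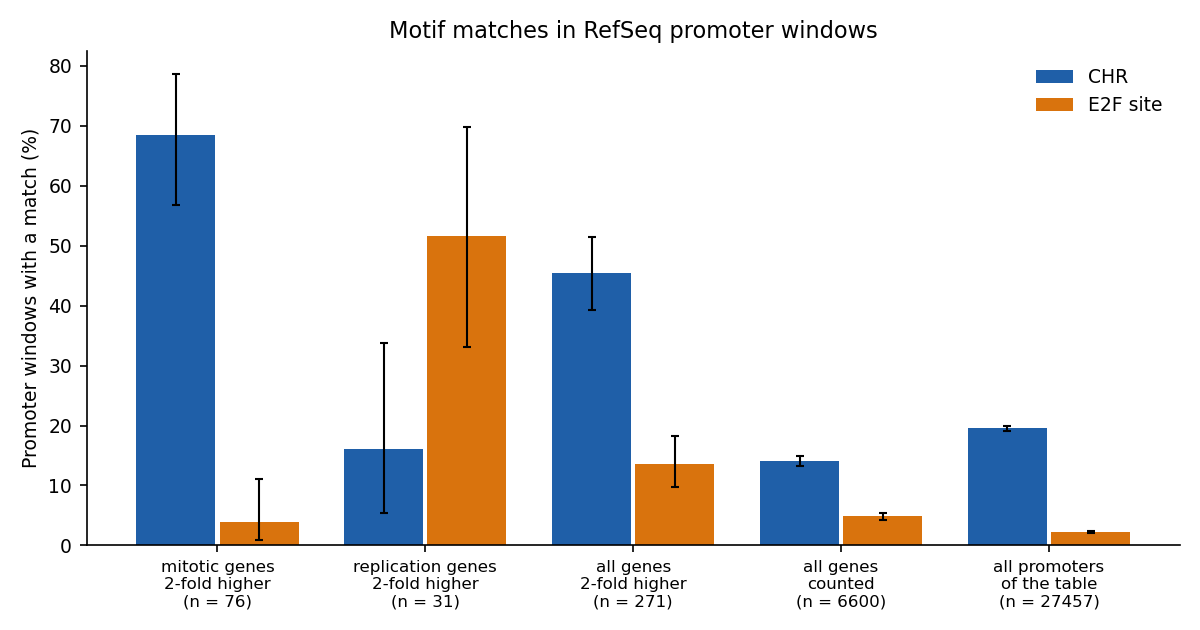
Share of RefSeq promoter windows (%) that hold a CHR (blue) or an E2F site (orange), for mitotic and replication genes at least 2-fold higher in Top2a-high cells, for all higher genes, all counted genes and all windows. Bars are shares and error bars exact binomial 95% intervals. The CHR share is highest in mitotic genes (68.4%) and the E2F share in replication genes (51.6%).

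Genes of entry into mitosis were higher almost throughout. Of 10 counted genes of the cyclin B and CDK1 module, 8 passed 2-fold upward and 0 downward (median log2 ratio 1.69). Cdk1, the kinase that drives mitosis, was at 122 and 28.0 CPM (4.38-fold, 3.66 to 5.25), and Ccnb1, its cyclin B1, at 210 and 68.3 CPM (3.07-fold, 2.72 to 3.47). The inhibitory kinase Wee1 was also higher (3.06-fold, 2.66 to 3.53), as was the activating phosphatase Cdc25c (4.10-fold, 3.07 to 5.51). Ccnb2 (1.72-fold) and Cks1b (1.93-fold) were under 2-fold. Among mitotic kinases and the chromosomal passenger complex, 16 of 16 counted genes were higher, with a median log2 ratio of 2.44. Aurka, which matures centrosomes, was 7.45-fold higher (5.46 to 10.3), Plk1 5.47-fold (4.51 to 6.66) and Ttk, the MPS1 checkpoint kinase, 4.82-fold (4.24 to 5.50). Bora, the activator of Aurora A, was 8.31-fold and Melk 8.29-fold higher, and Birc5, the survivin subunit of the passenger complex, was the least different of them at 2.51-fold (2.21 to 2.85).

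Spindle genes and mitotic kinesins had the largest median ratios of the lists. All 25 counted spindle and cytokinesis genes (median log2 ratio 2.51) and 13 of 14 mitotic kinesins (2.61) were at least 2-fold higher. Kif11, the Eg5 motor that pushes spindle poles apart, was at 149 and 17.8 CPM (8.39-fold, 6.83 to 10.4), and Kif20b at 409 and 55.3 CPM (7.40-fold, 6.58 to 8.34). Cenpe, the kinesin that carries chromosomes to the metaphase plate, was at 528 and 78.8 CPM (6.71-fold, 6.07 to 7.42). Kif20a was the kinesin under 2-fold, at 45.8 and 24.2 CPM. Ect2, the exchange factor that starts the cleavage furrow, was 6.92-fold (5.94 to 8.08) and Anln, the furrow scaffold anillin, 6.52-fold higher (5.17 to 8.29). Prc1, which bundles the midzone, was 4.90-fold and Aspm, which focuses spindle poles, 6.14-fold higher. Of 29 kinetochore and centromere genes, 26 were higher, with a median log2 ratio of 2.01. Cenpf, a large kinetochore protein, was at 845 and 188 CPM (4.50-fold), and the NDC80 complex genes Ndc80, Nuf2, Spc25 and Spc24 were 4.13, 3.80, 5.32 and 2.43-fold higher. Cenpm (1.35-fold), Cenpw (1.71-fold) and Zwint (1.15-fold) were the 3 below 2-fold. Tubulins, the material of the spindle, differed less: 3 of 7 counted genes of tubulins and stathmin were higher, led by Tubb4b (1656 and 624 CPM, 2.66-fold), and the list's median log2 ratio was 0.77.

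Genes that end mitosis and shape chromosomes were split by subunit. Of 21 checkpoint and anaphase-promoting complex genes, 9 were higher (median log2 ratio 0.51). The inhibitor Fbxo5, or EMI1 (7.93-fold, 5.75 to 11.1), separase Espl1 (6.65-fold, 5.01 to 8.92) and the activator Cdc20 (3.13-fold, 2.59 to 3.79) were among them. The core subunits were under 2-fold. Their ratios ran from 0.77 for Anapc2 (39.5 and 51.2 CPM) to 1.63 for Cdc27 (107 and 65.8 CPM), with Anapc5 at 280 and 255 CPM. Of 19 condensin and cohesin genes, 8 were higher (median log2 ratio 0.78). Esco2 and condensin genes made up those 8. Among the condensin genes were Ncapg (7.02-fold, 5.73 to 8.65), Ncaph (5.98-fold), Smc2 (785 and 189 CPM, 4.16-fold) and Smc4 (969 and 256 CPM, 3.79-fold). The cohesin ring genes Smc1a (1.34-fold), Smc3 (1.45-fold) and Rad21 (1.72-fold) were under 2-fold. Among 22 chromatin and nuclear envelope genes, 7 were higher (median log2 ratio 0.74). Hmgb2, a DNA-bending protein, was at 612 and 119 CPM (5.16-fold, 4.74 to 5.62) and Lmnb1, a nuclear lamin, at 66.7 and 16.6 CPM (4.02-fold), while Lmna was at 641 and 701 CPM.

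The replication machinery was higher as well, by smaller ratios. Of 51 counted replication genes, 35 passed 2-fold upward and 0 downward (median log2 ratio 1.17). With cells chosen by Mki67 in place of Top2a, an alternative chosen after the data were seen, 20 did. Pcna, the sliding clamp, was at 1094 and 353 CPM (3.10-fold, 2.94 to 3.27), and Prim1, the primase that starts each new strand, at 1122 and 423 CPM (2.65-fold, 2.52 to 2.79). All 6 counted genes of the MCM2-7 helicase were higher, from 2.03-fold (Mcm4) to 2.88-fold (Mcm5). Rrm2, a subunit of ribonucleotide reductase, was 5.09-fold higher (3.60 to 7.30). The licensing factors Cdc6 (1.55-fold, 1.32 to 1.81) and Cdt1 (1.10-fold, 0.74 to 1.62), which act before replication starts, were under 2-fold. Of 24 DNA repair and checkpoint genes, 17 were higher (median log2 ratio 1.59), led by the glycosylase Neil3 (8.73-fold, 5.96 to 13.1), Fanci of the Fanconi pathway (6.08-fold) and the helicase Blm (5.57-fold). Of 19 counted histone genes, 12 were higher (median log2 ratio 1.83), among them the linker histone Hist1h1b at 66.0 and 8.67 CPM (7.62-fold, 5.65 to 10.4) and Hist2h2ac at 152 and 20.2 CPM (7.53-fold, 6.20 to 9.20). Histone genes are near-identical copies, so reads may be split among them. The variant H3f3b, made outside S phase too, was at 210 and 237 CPM.

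The lists of G1 cyclins and kinases and of CDK inhibitors and pocket proteins had the smallest medians of the division lists. Of 8 counted G1 cyclins and kinases, 2 were higher, the cyclin E genes Ccne1 (2.56-fold, 1.88 to 3.49) and Ccne2 (2.23-fold, 1.86 to 2.67), and the median log2 ratio was 0.17. With cells chosen by Mki67, 0 were. Ccnd1, the cyclin D1 gene, was at 390 and 406 CPM, Cdk4 at 481 and 435 CPM and Cdk6 at 216 and 218 CPM. Of 8 CDK inhibitors and pocket proteins, 1 was higher, Rbl1 or p107 (2.80-fold, 2.18 to 3.59). The list's median log2 ratio was 0.20 in all counts and -0.38 at equal depth. Cdkn1a, the p21 gene, was at 16.3 and 16.0 CPM. Of 14 cell cycle transcription factors, 7 were higher (median log2 ratio 1.06), among them E2f7 (5.98-fold), Foxm1 (4.04-fold, 2.62 to 6.33), the MuvB subunits Lin9 (3.80-fold) and Lin54 (2.78-fold), and Mybl2, or B-Myb (2.37-fold, 1.77 to 3.16). Their subunits Lin37 (0.91) and Lin52 (1.34) were nearly level.

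**Figure D3:**
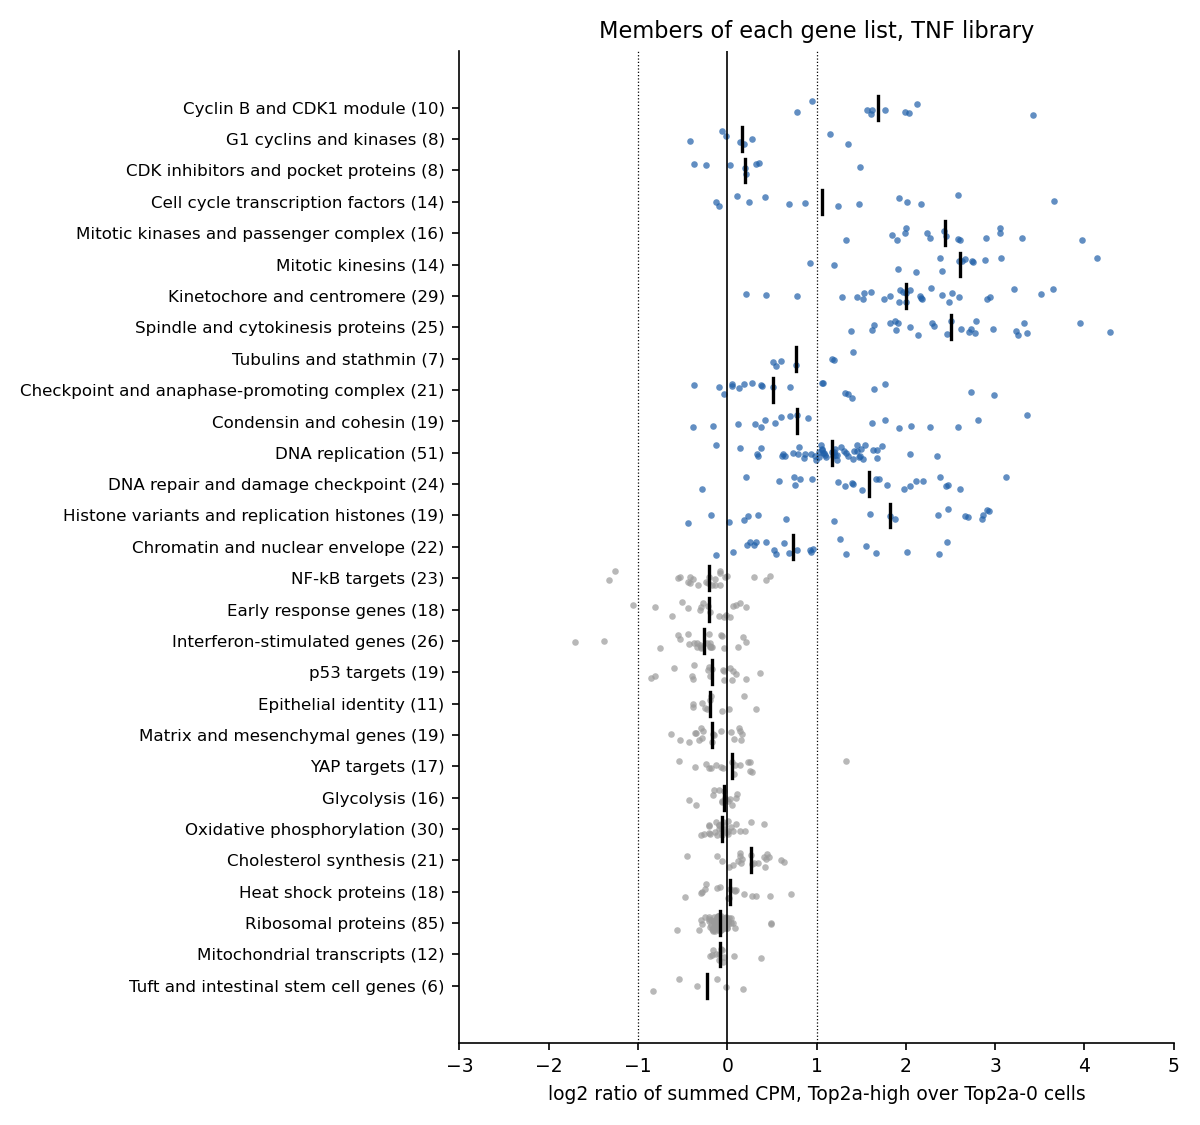
log2 ratio of summed CPM in Top2a-high over Top2a-0 cells of the TNF library for each counted member (points) of the gene lists, with the list's median (black bar) and the number of counted members in brackets. Blue lists are of cell division and grey lists are others, and dotted lines mark 2-fold. The kinesin, spindle and mitotic kinase lists lie furthest to the right, with medians of 2.61, 2.51 and 2.44.

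Few genes were lower in Top2a-high cells. Tcp11l2 had the smallest ratio, at 9.95 CPM in Top2a-high and 58.7 CPM in Top2a-0 cells, 5.90-fold lower, with a ratio of 0.17 (0.11 to 0.25). Slfn5, a Schlafen family gene, was at 68.3 and 252 CPM, 3.69-fold lower (ratio 0.27, 0.23 to 0.31), and 12.2% against 36.9% of cells had a count of it at equal depth. Mxd4, a MAX partner found in resting and differentiating cells, was at 67.7 and 160 CPM (ratio 0.42, 0.36 to 0.49), opposite in direction to its relative Mxd3. Lbp, which binds bacterial lipopolysaccharide, was at 148 and 350 CPM (0.42, 0.38 to 0.47), and Pdcd4, an inhibitor of translation initiation, at 22.9 and 53.5 CPM (0.43, 0.33 to 0.56). The small heat shock gene Hspb2 (0.33), the chromatin reader L3mbtl3 (0.36), Lcn2 (0.40), Ocm2 (0.41) and complement C3 (0.42) made up the 10 smallest. Lcn2 (27 and 148 counts) and C3 (40 and 209 counts) rested on few counts.

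Most inflammatory genes leaned slightly lower in Top2a-high cells, and few of them passed 2-fold. A ratio above 1 was found in 4 of 23 NF-kB targets, 5 of 18 early response genes and 3 of 26 interferon-stimulated genes. The lean was not particular to them. A ratio above 1 was found in 10 of 85 ribosomal protein genes, 2 of 12 mitochondrial transcripts and 3 of 11 epithelial genes. The same held for 6 of 19 matrix and mesenchymal genes and 1 of 6 tuft and intestinal stem cell genes. Cholesterol synthesis genes went the other way, with 18 of 21. For comparison, 0.689% of all counted genes were at least 2-fold lower, and their median log2 ratio was -0.02. The lists are small, and whether their shares differ from that of all genes was not tested. Of 23 counted NF-kB targets, 0 were higher and 2 lower (Lcn2 and C3), and the median log2 ratio was -0.20. The feedback target Ier3 was at 854 and 853 CPM, Sod2 at 250 and 340 CPM and Ccl2 at 58.7 and 61.9 CPM. Of 18 early response genes, 1 was lower, Egr2 (15.3 and 31.6 CPM, 0.48, 0.34 to 0.67), with a list median of -0.20. Of 26 interferon-stimulated genes, 2 were lower (list median -0.26), Ifit2 (11 and 78 counts) and Ifit3 (12 and 68 counts). Among 19 p53 targets none of the ratios passed 2-fold, 0 in either direction, and the median log2 ratio was -0.17.

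Genes of the cell's upkeep and identity were close to level, and several of their lists leaned slightly lower as the inflammatory lists did. In 85 ribosomal protein genes 0 passed 2-fold (median log2 ratio -0.08), as in 12 mitochondrial transcripts (-0.08), 30 oxidative phosphorylation genes (-0.06), 16 glycolysis genes (-0.04) and 18 heat shock genes (0.03). Atp5b, an ATP synthase subunit, was at 1882 and 1874 CPM, and Gapdh at 1791 and 1864 CPM. Of 21 cholesterol synthesis genes 0 passed 2-fold, although 18 had a ratio above 1 and the list's median was 0.26, with Sqle, a rate-limiting epoxidase, at 1598 and 1259 CPM (1.27-fold, 1.22 to 1.32). None of 11 epithelial genes (median -0.19), 19 matrix and mesenchymal genes (-0.17) or 6 tuft and intestinal stem cell genes (-0.22) passed 2-fold, that is 0 in each list. Vim, or vimentin, was at 1472 and 1780 CPM and Lgr5, a stem cell receptor, at 13.9 and 20.2 CPM. Of 17 YAP targets, 1 was higher, Birc5, which also belongs to the passenger complex, and the median was 0.06.

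The Top2a-high cells were not alike among themselves. In the 425 cells with at least 2000 counts, thinned to 2000, the sum of 99 mitotic genes had a median of 22 counts (1 to 60), against 4 (0 to 41) in the 1402 Top2a-0 cells. The sum of 55 replication genes had a median of 11 (1 to 29) against 4 (0 to 23). The groups overlapped in both sums. Of the Top2a-high cells, 72.7% lay above the 95th percentile of Top2a-0 cells for mitotic genes (14 counts) and 38.4% for replication genes (12 counts). By these limits 211 cells were above for mitotic genes alone, 65 for replication genes alone, 98 for both and 51 for neither. Across the 425 cells the sums ran in opposite directions, with Pearson's r of -0.31 and Spearman's rho of -0.32. The control library has other limits, set by its own Top2a-0 cells (19 counts for mitotic and 14 for replication genes). By those, 99 of its 182 Top2a-high cells were above for mitotic genes alone, 17 for replication genes alone, 14 for both and 52 for neither. The counts of 33 replication-dependent histone genes lay above the 95th percentile of Top2a-0 cells (2 counts) in 29.4% of Top2a-high and 2.50% of Top2a-0 cells. The relation is a description across cells of 1 library at 1 depth, where counts of one kind leave less room for another.

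Cell cycle phases were called from the same lists at 2000 counts. They placed 300 Top2a-high cells in G2/M (70.6%, 66.0 to 74.9%), 114 in S phase (26.8%, 22.7 to 31.3%) and 11 in G1 (2.59%, 1.30 to 4.58%). Top2a-0 cells were called G1 in 73.8% (71.4 to 76.0%), S in 13.1% and G2/M in 13.1%. In the control library G2/M was called in 82.4% of Top2a-high and 29.7% of Top2a-0 cells. The scores measure a cell against the others of its library and assign every cell a phase, so these are ranges and not counted states.

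**Figure D4:**
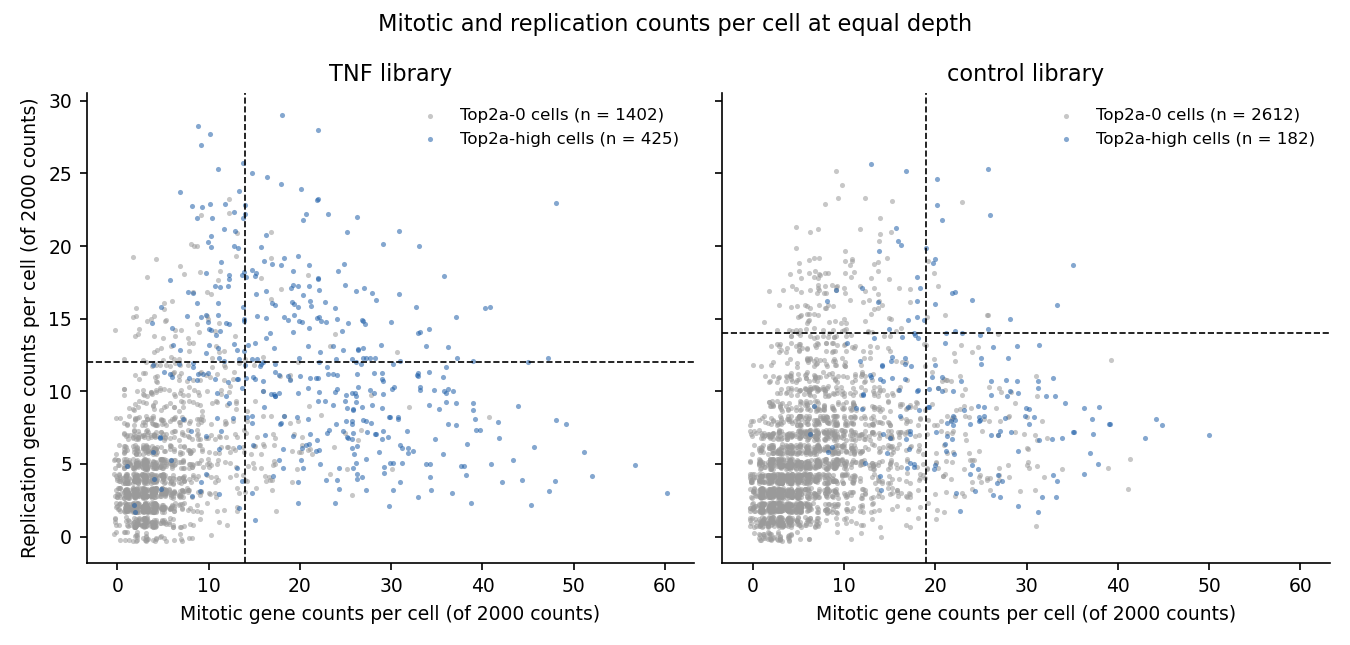
Mitotic gene counts (x axis) and replication gene counts (y axis) per cell, each cell thinned to 2000 counts, in the TNF (left) and control (right) library. Blue points are Top2a-high and grey points Top2a-0 cells, shifted slightly at random so that ties can be seen, and dashed lines are the 95th percentiles of Top2a-0 cells (14 and 12 counts in the TNF library, 19 and 14 in the control library). In the TNF library 211 Top2a-high cells lie to the lower right, 65 to the upper left and 98 to the upper right.

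Within the Top2a-high cells, the sums of the mitotic lists followed the level of Top2a in the TNF library and the sum of replication genes did not. The 462 cells were ordered by Top2a per 10000 counts and divided into groups of 154, with median levels of 7.11, 12.5 and 22.3. Mitotic kinesins summed to 1554, 2152 and 3059 CPM from the lowest to the highest group, kinetochore genes to 2475, 3179 and 4280 CPM and spindle genes to 2014, 2775 and 3848 CPM. Replication genes summed to 5980, 5858 and 5130 CPM. In the control library, in groups of 63 cells, the median Top2a levels were lower, at 5.82, 8.58 and 11.6. Kinesins summed to 1648, 2198 and 2073 CPM there, and replication genes to 5289, 4761 and 4750 CPM. Kinetochore genes summed to 2576, 3063 and 3234.5 CPM and spindle genes to 2621, 3383 and 3421 CPM. The kinetochore and spindle sums were thus highest where Top2a was, and the kinesin sum was not. Single genes differed within the lists, and those given here were chosen after their values were seen. Cit was at 50.9 CPM in the lowest and 154 CPM in the highest group (3.02-fold, 2.19 to 4.19), Kif11 at 92.0 and 264 CPM (2.87-fold, 2.26 to 3.66) and Cenpf at 546 and 1461 CPM (2.68-fold, 2.42 to 2.95). Mki67 was at 610 and 1382 CPM (2.27-fold, 2.06 to 2.50). Ccne2 was at 110 and 47.4 CPM (ratio 0.43, 0.28 to 0.63) and Cdc6 at 124 and 64.6 CPM (0.52, 0.36 to 0.73), so this cyclin E gene and this licensing factor were lower where Top2a was highest. The kinetochore genes Cenpl (110 and 102 CPM) and Zwint (39.4 and 38.8 CPM) were nearly level. The replication genes Mcm5 (22.2 and 31.6 CPM, 1.42-fold, 0.77 to 2.60) and Pola2 (27.1 and 41.6 CPM, 1.54-fold, 0.90 to 2.61) had ratios above 1 with intervals that span 1. Depth moved with the grouping, with median counts of 7349, 6715.5 and 3595, and its part in these differences was not tested.

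**Figure D5:**
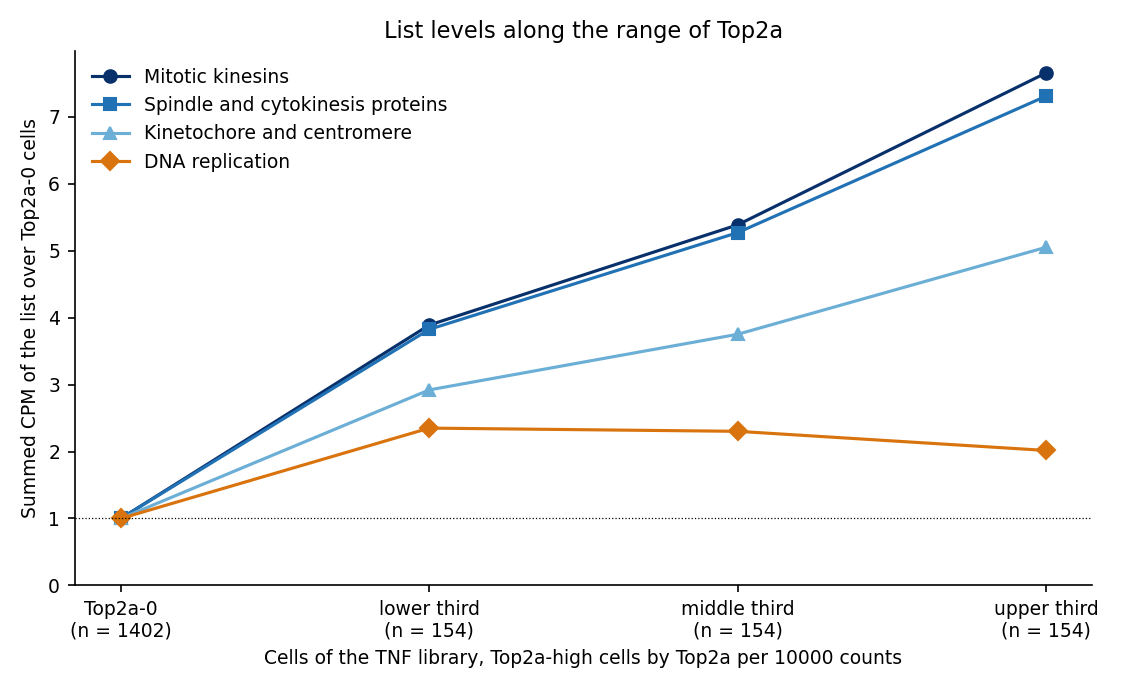
Summed CPM of 4 gene lists divided by their sum in Top2a-0 cells (y axis, linear from 0), in Top2a-0 cells and in the Top2a-high cells of the TNF library split into 3 groups of 154 by Top2a level (x axis). Kinesin, spindle and kinetochore genes are higher in each group than in the one before, and replication genes are highest in the first group (5980 CPM) and lowest in the last (5130 CPM).

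The same rule gave fewer cells in the control library, 189 of 5713 (3.31%, 2.86 to 3.81%), with 2612 Top2a-0 cells. At 2000 counts a cell, at least 3 Top2a counts were found in 8.39% of 2492 cells of the TNF library (7.33 to 9.54%) and 1.35% of 3931 cells of the control library (1.01 to 1.76%). Selecting by Mki67 in place of Top2a with the same minimums, chosen after the data were seen, gave shares that were closer, 502 cells (14.5%, 13.4 to 15.7%) and 603 cells (10.6%, 9.77 to 11.4%). In these Mki67-high cells, Top2a stood at 1000 CPM for the TNF and 342 CPM for the control library (2.93-fold, 2.74 to 3.12), and Kif14 at 79.4 and 23.2 CPM. Of the Top2a-high cells, 64.3% in the TNF and 63.5% in the control library were also Mki67-high. Of the Mki67-high cells, 59.2% and 19.9% were also Top2a-high.

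Most of the higher genes of the TNF library, and a smaller part of the lower ones, were also called in the control library. There 292 of 8450 genes were at least 2-fold higher in Top2a-high than in Top2a-0 cells (3.46%) and 132 were lower (1.56%). At equal depth 476 of 8571 genes were higher (5.55%) and 273 lower (3.19%). The libraries shared 234 higher genes, 68.8% of those of the TNF and 80.1% of those of the control library, and 14 lower genes, 24.6% and 10.6%. In 0 genes did the calls go in opposite directions. All 15 leading genes were at least 2-fold higher in the control library too, by 4.35 to 9.07-fold, and each ratio was smaller there. They were chosen for the largest ratios of the TNF library, which by itself favours smaller ratios in another library. Of them, 7 were also among the 15 largest ratios of the control library. The level of the leading genes in Top2a-0 cells was higher in the control library for 14 of the 15. Their level in Top2a-high cells was higher there for 3. Mxd3 was an example, at 140 and 133 CPM in the Top2a-high cells of the TNF and control library and at 11.1 and 23.5 CPM in the Top2a-0 cells. Kif14 differed in the other way, at 90.9 and 30.9 CPM in Top2a-high cells and 5.17 and 4.76 CPM in Top2a-0 cells. Of the 10 genes with the smallest ratios, all 10 were below 1 in the control library and 8 were at least 2-fold lower. Slfn5 was at 35.5 and 136 CPM there (ratio 0.26, 0.19 to 0.35), and Lcn2 had 0 counts in Top2a-high and 98 in Top2a-0 cells, at least 3.47-fold lower against 3 counts over the group. Replication genes were at least 2-fold higher in 13 of 51 counted genes in the control library against 35 of 51 in the TNF library, with medians of 0.69 and 1.17. The differences of these ratios between libraries were not tested.

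Set directly against each other, Top2a-high cells of the TNF and control libraries differed in 609 of 8528 genes at least 2-fold higher in the TNF library (7.14%) and 883 lower (10.4%). The median log2 ratio over all genes was -0.06. Within the division program the direction varied by gene. Prim1 was at 1122 CPM in the TNF and 368 CPM in the control library (3.05-fold), and Hist2h2ac at 152 and 39.4 CPM (3.87-fold). Cdk1 was at 122 and 342 CPM, Ccna2, the cyclin A2 gene, at 27.5 and 124 CPM and Aurkb at 21.2 and 90.3 CPM. These regulators were thus lower in the Top2a-high cells of the TNF library, but most genes of the related lists were under 2-fold apart. Of 10 counted genes of the cyclin B and CDK1 module, 2 were lower and 0 higher (median log2 ratio 0.15). Of 16 mitotic kinase and passenger complex genes, 4 were lower and 1 higher (median -0.43). In Top2a-0 cells the medians for the same genes were -0.26 and -0.81. The rule took unlike parts of the dividing cells: 59.2% of Mki67-high cells in the TNF and 19.9% in the control library. At 2000 counts, 70.6% and 82.4% of the Top2a-high cells were called G2/M. What this adds to the differences between genes was not tested. NF-kB targets also had lower levels in the Top2a-high cells of the TNF library: 12 of 22 passed 2-fold downward and 1 upward. Their median log2 ratio was -1.17 in Top2a-high and -1.18 in Top2a-0 cells. Ccl2, a chemokine gene induced by TNF through NF-kB, was at 58.7 and 1082 CPM. This direction is opposite to the induction of such genes by TNF, and its cause was not tested. Per the labels, the cells were thawed from frozen vials and washed before library preparation. Each statement here on direction is about the library labelled TnFa. Early response genes had a median of -1.06 in Top2a-high cells and histone genes 0.75.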

How the data were processed

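Single-cell RNA sequencing counts of 2 libraries of IEC-6 cells were used, 3457 cells labelled TnFa (14604393 counts) and 5713 labelled Ctrl (24209394 counts). The deposited values are whole-number counts per gene and cell. The reads were placed on build Rnor_5.0, per the submitters' processing notes. Not given in the sources used here are the annotation, barcode filter, aligner and counter, and whether a count is a unique molecule. All listed barcodes had at least 500 counts. Counts were summed over cells and expressed per 1000000 (CPM). A group with under 3 counts entered a ratio at 3 counts. Intervals are exact Poisson, Clopper-Pearson or conditional binomial intervals at 95% and cover counting error only. Cells were thinned without replacement to 2000 counts. Phases were called with scanpy 1.11.5 from the replication and mitotic lists, and scaling factors for 1 alternative came from edgeR 4.0.16 in R 4.3.3. The scripts ran in Python 3.11.15 with numpy 2.4.6, scipy 1.17.1 and pandas 2.3.3, and the ratio and thinning steps were tested on simulated data. Scanpy's Scrublet marked 0 and 1 cells, so it was taken not to have worked, and no cell was removed as a doublet.

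The cells and the 33 gene lists were chosen with earlier results of these data known. Named genes were the 5 markers, Mki67 and Dclk1, the 15 largest and 10 smallest ratios among genes of at least 20 CPM, the counted members of the 15 cell division lists, and for each other list the 3 most different and 2 most abundant counted members. Ccl2, Epcam, Cdh1, Krt19 and markers of other cell types with few counts were named outside this rule, after their values were seen. Of the 15 largest ratios, 1 gene is not reported here by name, and it stays in the counts. No comparison has replicates, so no p-value was computed.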

Additional observations from a re-analysis of the deposited data

Results flagged for a closer look

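Cells of the TNF library that held Top2a but missed the rule also held mitotic RNA. Among the 665 of them with at least 2000 counts, thinned to 2000, 19.5% had a sum of mitotic genes above the 95th percentile of Top2a-0 cells (14 counts), against 4.99% of the Top2a-0 cells. Their median was 6 counts, between the 4 of Top2a-0 and the 22 of Top2a-high cells. Apart from those beside the limits of the rule, these cells are not used in the report, and the value stood out because it lies above the level in the comparison cells.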

How the results depend on the processing

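No paired analysis was possible because each group holds 1 library. The 340 higher genes stayed within 1.5 times under all settings but the removal of the minimum level, which gave 667 and adds genes under 10 CPM. The 57 lower genes moved more. Their number was 200 at equal depth, 93 with at least 5 Top2a counts, 106 with at least 10 Top2a counts per 10000, 116 against cells without Top2a and Mki67, 94 for cells chosen by Mki67, 128 with a minimum of 5 CPM, 24 with 20 CPM and 293 with no minimum. The share of Top2a-high cells was 9.75% with at least 5 Top2a counts, 8.36% with at least 10 per 10000 and 8.39% at equal depth. All 16 named higher genes (the leading 15 and Mki67) were at least 2-fold higher under each of up to 10 settings. All 10 named lower genes had ratios below 1 under the same settings, and 5 of them were at least 2-fold lower under each. The others, Lbp, Lcn2, L3mbtl3, C3 and Ocm2, reached ratios of 0.52, 0.51, 0.54, 0.57 and 0.76 under at least 1 setting. Kif14 was 35.6-fold higher against cells without Top2a and Mki67, and Tcp11l2 had a ratio of 0.07 with at least 10 Top2a counts per 10000. Replication genes were at least 2-fold higher in 20 members when cells were chosen by Mki67, against 35. Scaling by TMM factors shifted all log2 ratios by 0.01. Leaving out shared barcodes and choosing by Mki67 were added after the data were seen. Except for the levels set by construction, the cause of these moves was not tested. Among the lower genes, Hspb2 had 20 and 132 counts, which sets the width of its interval.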
